A study of Mus musculus with 6 samples.

Results

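Liver mRNAs of the growth hormone (GH), STAT5 and IGF1 axis were described in mice on a diet deficient in methionine and choline (MCD diet), with and without *Mttp* in the intestine. The axis was taken as 9 genes, found by symbol among the 40481 genes of the deposited count table: Ghr, Stat5a, Stat5b, Socs2, Cish, Igf1, Igfals, Bcl6 and Cux2. All 9 were found, and all 9 passed the filter on low counts. The lowest read count of any of them in any pool was 176, for Cux2.

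Male C57BL/6 mice of the Mttp f/f Villin Cre ERT2 line, aged 12–16 weeks, received injections for 5 days, tamoxifen in the *Mttp-IKO* group and vehicle in their littermate controls. Tamoxifen was given in the *Mttp-IKO* group only, so effects of the drug and of the deletion cannot be told apart. They began the MCD diet 3 weeks later and ate it for 3 weeks, and livers were taken after 4 h of fasting. The labels call the controls wild type, whereas the design describes them as vehicle-injected mice of the floxed line. The Villin promoter drives Cre in intestinal epithelium, so liver Mttp mRNA, at 90.3 to 185 CPM (reads relative to the pool's total on genes, scaled by TMM) in controls and 128 to 160 CPM in *Mttp-IKO* pools, was no check of the deletion. RNA-Seq was performed on 3 pools of each group, each combining liver RNA of 3 to 4 mice, and the p-values therefore measure the spread between pools, not between mice. No untreated or chow-fed group was analysed here, so values under MCD feeding have no reference without the diet.

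GH from the pituitary binds its receptor, the product of Ghr, on hepatocytes. The bound receptor activates the kinase JAK2, which phosphorylates STAT5B and the related STAT5A, and these move to the nucleus and switch on Igf1, Igfals, Socs2 and Cish. IGF1 and the acid-labile subunit encoded by Igfals circulate together, while SOCS2 and CIS, the product of Cish, dampen the signal. In rodents GH is released in pulses in males and more steadily in females, and this pattern sets the sex-biased genes of the liver through STAT5 and the repressors BCL6, which prevails in male liver, and CUX2, which is typical of female liver.

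Promoters are shown for 3 members, Cish and Bcl6 as those with 2 or more matches to the STAT5 motif in 1 window and Cux2 as the gene whose mRNA differed most. STAT5 dimers recognise TTCNNNGAA, which is its own reverse complement, so one strand was searched. Sequences are RefSeq promoter windows of build GRCm38.p6, from 250 bases before to 50 bases after a start site, 5′ to 3′ on the gene's strand, with each TTCNNNGAA match in capitals. Cish, on the plus strand at chr9:107296409-107296708, held 2 matches, Bcl6, on the minus strand at chr16:23981234-23981533, held 3, and Cux2, on the minus strand at chr5:122049802-122050101, held 0.
Cish: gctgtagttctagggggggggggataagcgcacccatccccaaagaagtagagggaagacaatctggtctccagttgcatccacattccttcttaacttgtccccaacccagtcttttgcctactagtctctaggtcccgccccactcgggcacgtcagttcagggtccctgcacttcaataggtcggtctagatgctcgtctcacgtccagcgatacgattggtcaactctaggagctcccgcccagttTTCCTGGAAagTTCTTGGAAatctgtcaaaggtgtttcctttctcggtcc
Bcl6: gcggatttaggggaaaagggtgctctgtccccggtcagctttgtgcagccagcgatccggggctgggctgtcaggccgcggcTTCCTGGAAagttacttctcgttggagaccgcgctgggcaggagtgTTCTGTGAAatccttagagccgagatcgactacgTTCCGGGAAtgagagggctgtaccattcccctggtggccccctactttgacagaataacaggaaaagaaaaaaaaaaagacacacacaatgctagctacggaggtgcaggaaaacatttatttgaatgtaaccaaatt
Cux2: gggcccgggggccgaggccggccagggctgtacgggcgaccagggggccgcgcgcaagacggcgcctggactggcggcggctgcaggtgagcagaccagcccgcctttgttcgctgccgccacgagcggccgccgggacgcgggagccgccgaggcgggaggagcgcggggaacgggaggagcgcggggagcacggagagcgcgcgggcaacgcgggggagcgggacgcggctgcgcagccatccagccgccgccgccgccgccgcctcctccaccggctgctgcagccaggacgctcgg
Such a match was present in 2726 of 32851 windows (8.30%), and 150 windows (0.457%) held at least 2. RefSeq windows were available for 8 of the 9 members, 15 windows in all, and Socs2 was not among them. Of these 15 windows, 5 held a match, and they belonged to 3 genes, Cish, Bcl6 and Igfals. The matches are letters in a window and were not tested as sites of binding, and 0 matches in a window says nothing of sites elsewhere in the gene.

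A pair of pools stood apart from the others of their group in the features given here. Log2 fold changes and list medians that *Mttp-IKO* pool 3 moved by over 1.5 times are given also without it. *Mttp-IKO* pool 3 had the fewest reads on genes and only 0.290% of them on small RNA genes, where the other pools had 1.92% to 3.51%, and was the highest of its group for 5 of 9 members. Control pool 2 carried RNA of striated muscle, with 827 CPM summed over 9 markers (0.936 to 107 CPM in the other controls, 0.545 to 1.35 CPM in *Mttp-IKO* pools), and was the highest control for 7 of 9 members. By counts over all genes it was no further from control pool 3 than control pool 1 was (chi-square per degree of freedom 33.5 and 36.2). How often a pool was the highest of its group over all genes was not counted. Total reads on genes were 25271585 to 36238734 per pool, where a count of 0 allows up to 0.0743 to 0.126 CPM (3 reads), counting error only. Hepatocyte markers, which define the labelled tissue, were present in every pool, at a summed 61270 to 94296 CPM in controls and 111908 to 166388 CPM in *Mttp-IKO* pools, with 0 of 10 called by edgeR. All 4 Y-linked genes were read in every pool (summed 93.6 to 105 and 122 to 148 CPM) and Xist stayed at 0.421 to 1.51 CPM, the pattern of male RNA.

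Among the 9 members, Cux2 alone passed the threshold, an adjusted p under 0.05 in the edgeR quasi-likelihood test with Benjamini-Hochberg adjustment over 17287 genes. It was higher in the *Mttp-IKO* pools, and the other 8 did not pass. Across all genes tested, 694 (4.01%) passed, 159 (0.920%) higher and 535 (3.09%) lower. By sign alone 6 members were above and 3 below 0, with a median log2 fold change of 0.016 beside 0.0059 for all genes. The groups did not overlap for 2 members, Cux2 (higher) and Stat5a (lower), against 31.0% of all genes, 14.6% higher and 16.5% lower. Without *Mttp-IKO* pool 3, again 1 of 9 passed, Cux2, against 4.84% of the genes then tested, and the members' median was 0.061. With 3 pools in each group, the smallest two-sided p of an exact permutation test is 0.1.

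**Figure D1:**
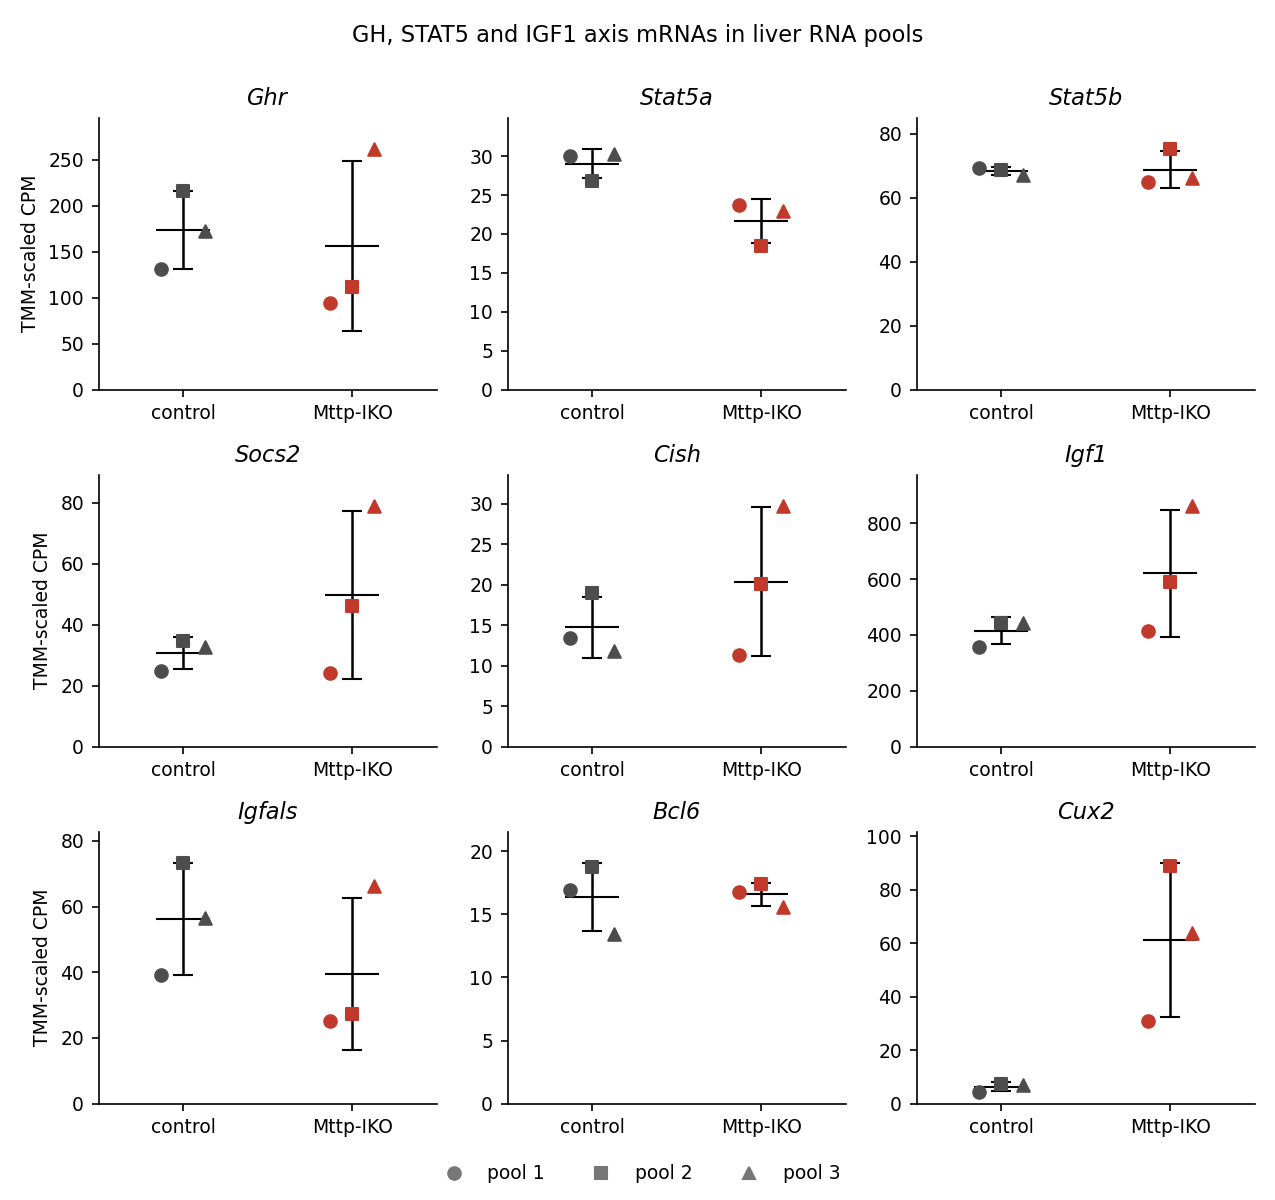
Level of each member in every pool, as TMM-scaled CPM (y axes from 0), for control (grey) and *Mttp-IKO* (red) pools, with pools 1, 2 and 3 as circles, squares and triangles; wide bars are means and error bars the SD over 3 pools. Cux2 separates the groups, at 4.36 to 7.42 CPM in controls and 31.1 to 88.7 CPM in *Mttp-IKO* pools, while *Mttp-IKO* pool 3 is the highest of its group for Ghr, Socs2, Cish, Igf1 and Igfals.

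The receptor gene Ghr (ENSMUSG00000055737, chromosome 15, 3317760 to 3583492, minus strand, GRCm38) was read at 131, 216 and 173 CPM in control pools 1, 2 and 3 and at 94.2, 112 and 262 CPM in the *Mttp-IKO* pools. *Mttp-IKO* pools 1 and 2 lay below all controls and pool 3 above all of them, so the groups overlapped. This order of pools was found in 557 of 17287 genes (3.22%). The means were 174 ± 42.3 and 156 ± 92.1 CPM (SD, n = 3 each), and the log2 fold change was -0.15 (SE 0.39, 95% interval -1.05 to 0.74, edgeR adjusted p = 0.849). Without pool 3 it was -0.75 (edgeR adjusted p = 0.0949), and leaving out single pools gave -0.75 to 0.11.

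The transcription factor genes lie side by side on chromosome 11, with 8626 bases between them, and differed in how they compared. Stat5a (ENSMUSG00000004043, 100859351 to 100885169, plus strand) was read at 30.0, 26.9 and 30.3 CPM in controls and at 23.7, 18.4 and 22.9 CPM in *Mttp-IKO* pools. Every *Mttp-IKO* pool lay below every control, with means of 29.0 ± 1.89 and 21.7 ± 2.84 CPM (SD, n = 3 each). The log2 fold change was -0.42 (SE 0.16, 95% interval -0.78 to -0.062), with an unadjusted edgeR p of 0.0270 that became 0.163 after adjustment and an exact permutation p of 0.1, the smallest possible. Its sign was the same with any single pool left out (-0.50 to -0.32). Stat5a overlaps Stat3 on the opposite strand only at its end, from 100885098 to 100885169, and whether the counting used strand is not stated.

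Stat5b (ENSMUSG00000020919, 100780731 to 100850724, minus strand), the form that carries most GH signalling in liver, was read at 69.3, 68.7 and 66.9 CPM in controls and at 64.8, 75.3 and 66.2 CPM in *Mttp-IKO* pools. The groups lay on top of each other, with means of 68.3 ± 1.24 and 68.7 ± 5.68 CPM (SD, n = 3 each). The log2 fold change was 0.0091, with a 95% interval of -0.31 to 0.33 (SE 0.14, edgeR adjusted p = 0.977), and 0.038 without *Mttp-IKO* pool 3. Per length, as RPKM, Stat5b exceeded Stat5a 2.97, 3.29 and 2.85 times in controls and 3.52, 5.26 and 3.72 times in *Mttp-IKO* pools, ratios that did not overlap between the groups. Whether the 2 genes changed unequally was not tested.

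Of the feedback inhibitors, Socs2 (ENSMUSG00000020027, chromosome 10, 95385362 to 95417180, minus strand) was read at 24.8, 34.7 and 32.8 CPM in controls and at 24.2, 46.2 and 79.0 CPM in *Mttp-IKO* pools. Pool 1 of the *Mttp-IKO* group was just below the controls and the others above them. With means of 30.8 ± 5.24 and 49.8 ± 27.6 CPM (SD, n = 3 each), the log2 fold change was 0.69 (SE 0.38, 95% interval -0.18 to 1.56, edgeR adjusted p = 0.315). Without pool 3 it was 0.19 (edgeR adjusted p = 0.700).

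Cish (ENSMUSG00000032578, chromosome 9, 107296026 to 107302784, plus strand), whose window above holds 2 matches separated by 2 bases, was also highest in *Mttp-IKO* pool 3. It was read at 13.4, 19.0 and 11.9 CPM in controls and at 11.3, 20.1 and 29.8 CPM in *Mttp-IKO* pools. The groups overlapped, with means of 14.8 ± 3.76 and 20.4 ± 9.21 CPM (SD, n = 3 each) and a log2 fold change of 0.46 (SE 0.34, 95% interval -0.32 to 1.25, edgeR adjusted p = 0.454). Without pool 3 it was 0.093 (edgeR adjusted p = 0.872).

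Igf1 (ENSMUSG00000020053, chromosome 10, 87858265 to 87937042, plus strand), the main endocrine output of hepatic GH signalling, had the highest level per length of the members in both groups. It was read at 358, 444 and 443 CPM in controls and at 412, 588 and 862 CPM in *Mttp-IKO* pools. Pool 1 of the *Mttp-IKO* group fell among the controls and the other two exceeded them. Means were 415 ± 49.3 and 621 ± 227 CPM (SD, n = 3 each), for a log2 fold change of 0.58 (SE 0.28, 95% interval -0.058 to 1.22, edgeR adjusted p = 0.257). It was 0.27 without pool 3 (edgeR adjusted p = 0.410). Igf1 overlaps an antisense gene, Igf1os, read at a mean of 4.68 CPM.

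Igfals (ENSMUSG00000046070, chromosome 17, 24878770 to 24882008, plus strand) was read at 39.1, 73.2 and 56.4 CPM in controls and at 25.1, 27.3 and 66.3 CPM in *Mttp-IKO* pools. As for Ghr, pools 1 and 2 of the *Mttp-IKO* group lay below all controls, but pool 3 fell within the controls' range. Means were 56.2 ± 17.1 and 39.6 ± 23.2 CPM (SD, n = 3 each) and the log2 fold change -0.51 (SE 0.40, 95% interval -1.42 to 0.40, edgeR adjusted p = 0.479). It was -1.10 without *Mttp-IKO* pool 3 (edgeR adjusted p = 0.0589) and -0.87 without that pool and control pool 2, where it passed (edgeR adjusted p = 0.0294), and -0.30 without control pool 2 alone (edgeR adjusted p = 0.744). Igf1 and Igfals, targets of the same factor, thus had point estimates of opposite sign, neither of which passed with all 6 pools.

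The repressor genes differed in how they compared. Bcl6 (ENSMUSG00000022508, chromosome 16, 23965052 to 23988852, minus strand) was read at 16.9, 18.8 and 13.5 CPM in controls and at 16.7, 17.4 and 15.6 CPM in *Mttp-IKO* pools. All *Mttp-IKO* pools fell within the controls' range, with means of 16.4 ± 2.69 and 16.6 ± 0.919 CPM (SD, n = 3 each). The log2 fold change was 0.016, with a 95% interval of -0.38 to 0.41 (SE 0.17, edgeR adjusted p = 0.967), and 0.061 without *Mttp-IKO* pool 3.

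Cux2 (ENSMUSG00000042589, chromosome 5, 121858387 to 122050102, minus strand) was read at 4.36, 7.42 and 6.99 CPM in controls, from 176, 268 and 224 reads. In *Mttp-IKO* pools it was read at 31.1, 88.7 and 63.7 CPM, from 965, 2588 and 1521 reads. Every *Mttp-IKO* pool was above every control, pool 3 included, and the means were 6.26 ± 1.66 and 61.2 ± 28.9 CPM (SD, n = 3 each). The change was 9.78-fold, a log2 fold change of 3.29 (SE 0.40, 95% interval 2.37 to 4.21, edgeR adjusted p = 0.0159, exact permutation p = 0.1), and 10 of the 159 genes called higher had a larger fitted one. The reads of Cux2 relative to those of Bcl6 in the same pool were 0.258, 0.395 and 0.519 in controls and 1.86, 5.09 and 4.09 in *Mttp-IKO* pools. Without pool 3 the log2 fold change was 3.26 (edgeR adjusted p = 0.0208), and without control pool 2 as well 3.39 (edgeR adjusted p = 0.00822). The call was lost without control pool 1, control pool 3 or *Mttp-IKO* pool 2 (edgeR adjusted p = 0.0655, 0.0652 and 0.0914), with 3.06, 3.35 and 2.92 as the log2 fold changes.

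**Figure D2:**
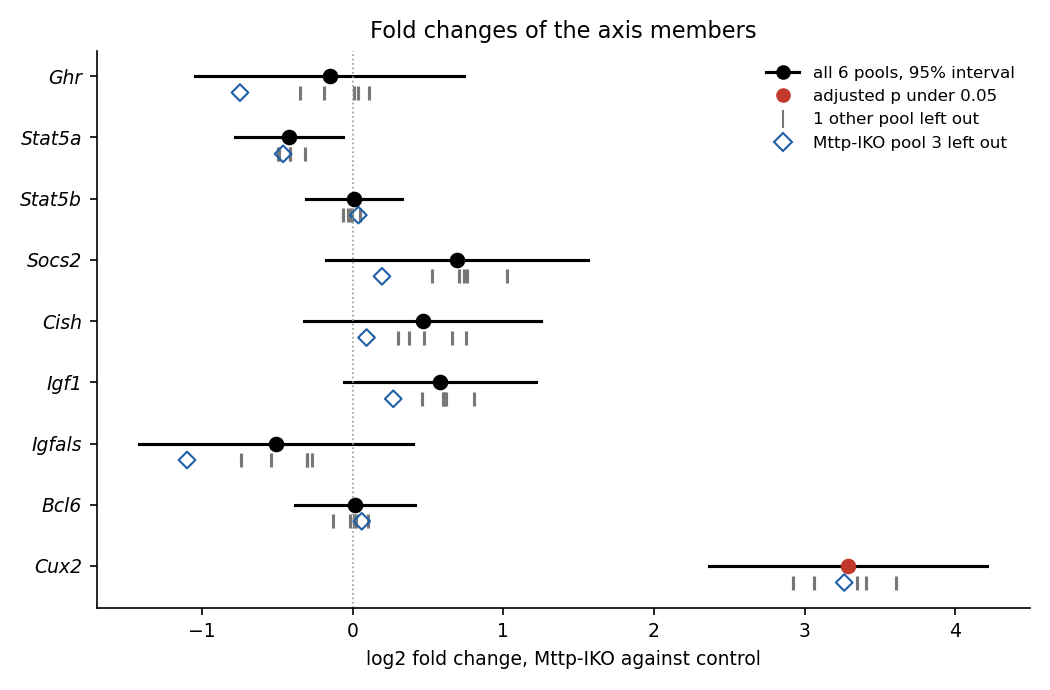
Log2 fold change of each member, *Mttp-IKO* against control, with all 6 pools (dots, red where the edgeR adjusted p was under 0.05, lines for 95% intervals), with *Mttp-IKO* pool 3 left out (blue diamonds) and with each other pool left out (grey ticks). Leaving out pool 3 moved Ghr from -0.15 to -0.75, Igfals from -0.51 to -1.10 and Socs2 from 0.69 to 0.19, while Cux2 stayed between 2.92 and 3.61.

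Ranked by mean RPKM (CPM per kilobase of gene length) in controls, the members stood as Igf1 (41.9), Igfals (26.6), Ghr (19.2), Stat5b (12.3), Stat5a (4.07), Socs2 (3.23), Bcl6 (2.45), Cish (2.30) and Cux2 (0.781). In *Mttp-IKO* pools the first 4 held their places, at 62.7, 18.7, 17.2 and 12.4 RPKM, and Cux2 followed them at 7.63 RPKM, ahead of Socs2 (5.22), Cish (3.18), Stat5a (3.04) and Bcl6 (2.47). In controls the pools of neighbours overlapped for Igfals and Ghr, for Socs2 and Bcl6, and for Bcl6 and Cish, and those of the other neighbours did not. In *Mttp-IKO* pools Igfals, Ghr and Stat5b overlapped one another, each of the last 5 genes overlapped its neighbours, and Igf1 stayed apart from Igfals and Stat5b from Cux2. These overlaps compare ranges over pools. Within each single pool Igfals stood above Ghr in both groups, Socs2 above Bcl6 in controls and Socs2 above Cish in *Mttp-IKO* pools.

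As a description over the 6 pools, likeness was measured as the root mean square difference of log2 CPM after centring each gene on its mean, over 14120 genes with a mean of at least 1 CPM. For Igf1 the 3 nearest genes outside the axis were Farp2 (0.0524), Cyp4f17 (0.0568) and D630044L22Rik (0.0631). For Socs2 they were Bag4 (0.0576), Cobll1 (0.117) and Acsl1 (0.125), and for Cish Wnt2b (0.0641), Synm (0.113) and Gm24530 (0.115). Within the axis, Ghr was nearest to Igfals (0.179), Socs2 to Igf1 (0.195), Cish to Socs2 (0.231) and Stat5b to Bcl6 (0.138), while the nearest member to Cux2, Socs2, lay 1.37 away. All pairs share the same 6 libraries, and *Mttp-IKO* pool 3 weighs in each.

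Among 16 genes of GH receptor signalling (kinase, adaptors, phosphatases and other SOCS and STAT genes), 0 were called higher (0.920% of all genes) and 1 lower (3.09%), with a median log2 fold change of 0.18. The median was 0.028 without *Mttp-IKO* pool 3, the highest *Mttp-IKO* pool for 12 of the 16. The gene called was Sirpa, an inhibitory receptor that JAK2 phosphorylates and that myeloid cells carry in quantity. It was read at 178, 81.0 and 167 CPM in controls and 47.3, 49.4 and 39.9 CPM in *Mttp-IKO* pools, a log2 fold change of -1.64 (SE 0.29, edgeR adjusted p = 0.0298). Beside it, 6 of 10 markers of recruited macrophages were called lower, with summed levels of 349 to 1053 CPM in controls and 174 to 228 CPM in *Mttp-IKO* pools, and 1 of 10 Kupffer cell markers, Timd4, was called higher (summed 701 to 1170 and 480 to 988 CPM). Kupffer cell markers as a list went mostly the other way, 3 above and 7 below 0. Their median log2 fold change was -0.62, or -0.37 without *Mttp-IKO* pool 3. In bulk RNA fewer cells of a type and less RNA per cell cannot be told apart, and the part of myeloid cells in the Sirpa value was not tested. Jak2, the kinase bound to the receptor, had a log2 fold change of -0.16 (edgeR adjusted p = 0.572). Stat3 had 0.67 (edgeR adjusted p = 0.154), which was 0.40 without *Mttp-IKO* pool 3, and Irs2, an insulin receptor substrate, 0.67 (edgeR adjusted p = 0.355), which was then -0.013.

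Of 14 genes for IGF ligands, binding proteins and receptors, 13 were tested, 0 were called higher (0.920% of all genes) and 1 lower (3.09%), and the median was -0.29, or -0.061 without *Mttp-IKO* pool 3. The gene called was Igfbp7, a low-affinity IGF-binding protein of endothelial and stellate cells, at 265, 193 and 266 CPM in controls and 114, 95.4 and 80.0 CPM in *Mttp-IKO* pools (-1.32 on the log2 scale, SE 0.21, edgeR adjusted p = 0.0219). Beside it, 7 of 12 stellate cell markers were called lower (summed 1016 to 1851 and 532 to 614 CPM) and 0 of 8 endothelial markers were called (425 to 463 and 413 to 470 CPM), and the part of stellate cells in this value was not tested.

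The binding protein genes Igfbp1, Igfbp2, Igfbp3 and Igfbp4 did not pass in the main test. Igfbp1, which insulin represses, was read at 631, 618 and 914 CPM in controls and at 1646, 1192 and 3355 CPM in *Mttp-IKO* pools, without overlap (1.52 on the log2 scale, SE 0.39, edgeR adjusted p = 0.0722). With the replicate number as a block Igfbp1 passed (edgeR adjusted p = 0.0405), and without *Mttp-IKO* pool 3 it had 0.98 (edgeR adjusted p = 0.0597). Igfbp2, at 688, 788 and 729 against 1336, 1422 and 1026 CPM, did not overlap either (0.78, edgeR adjusted p = 0.0716), and it passed without *Mttp-IKO* pool 3 (0.91, edgeR adjusted p = 0.0231). Igfbp4, the most abundant in reads, had 0.25 (edgeR adjusted p = 0.486), and Igfbp3, the carrier that joins IGF1 and the acid-labile subunit, -0.65 (edgeR adjusted p = 0.319), or -0.37 without that pool.

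Female-biased liver genes, which depend on the steady GH pattern and include targets of CUX2, held most of the calls among the lists around the axis. Of 22 listed, 20 were tested, 7 were called higher (0.920% of all genes) and 2 lower (3.09%), and 17 were above 0. Groups did not overlap for 15 of them, 13 higher and 2 lower, against 31.0% of all genes, 14.6% higher and 16.5% lower. The median log2 fold change was 1.12, also with Sult3a1 set to its lower bound. The list was written with results of these data known, so these counts are no independent evidence of a direction.

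The P450 Cyp2c40 was read at 2.25, 3.41 and 2.84 CPM in controls and at 17.6, 14.3 and 15.3 CPM in *Mttp-IKO* pools, a log2 fold change of 2.47 (SE 0.21, edgeR adjusted p = 0.00925). Cyp2b13, at 2.03, 3.93 and 3.31 against 26.8, 41.6 and 13.8 CPM, rose by 3.15 on that scale (SE 0.43, edgeR adjusted p = 0.0181). Cyp3a44, at 25.5, 17.8 and 46.4 against 181, 123 and 285 CPM, rose by 2.72 (SE 0.43, edgeR adjusted p = 0.0219). In each of these 3 P450 genes all *Mttp-IKO* pools, pool 3 included, exceeded all controls.

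The near-identical copies Cyp3a41a and Cyp3a41b also rose, by 4.68 and 5.22 on the log2 scale (edgeR adjusted p = 0.0181 for each), from 0.545 to 2.09 CPM and 0.0495 to 0.405 CPM in controls to 13.7 to 50.6 CPM and 2.98 to 9.05 CPM. Reads with more than 1 matching place were left out of the counts, so the split between such copies is uncertain. Sult3a1, a sulfotransferase of female liver, had 0 reads in every control and 19, 65 and 18 reads in *Mttp-IKO* pools, at least 14.3-fold higher against a floor of 3 counts per library (edgeR adjusted p = 0.0298). Tox, a nuclear factor gene, was at 20.9, 29.4 and 26.4 against 48.5, 71.8 and 59.0 CPM (log2 fold change 1.23, edgeR adjusted p = 0.0241).

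Both genes called lower ran the other way. Ntrk2, a neurotrophin receptor gene, was at 23.7, 11.1 and 16.6 CPM in controls and at 0.419, 0.274 and 1.09 CPM in *Mttp-IKO* pools (-4.89 on the log2 scale, SE 0.51, edgeR adjusted p = 0.0111). Atp6v0d2, a proton pump subunit gene, was at 36.7, 25.0 and 43.9 against 6.99, 16.1 and 14.3 CPM (-1.50, edgeR adjusted p = 0.0499). Of the 11 that did not pass, Cyp2a4, a steroid-hydroxylating P450 gene, was at 596, 413 and 544 against 1249, 485 and 1401 CPM, with overlap (1.01, edgeR adjusted p = 0.165). Without *Mttp-IKO* pool 3, 8 were called higher (1.69% of all genes then tested) and 1 lower (3.15%). Without *Mttp-IKO* pool 2, 0 were called by edgeR, as for all genes, with 14 at an unadjusted p under 0.05 beside 3221 of all genes.

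**Figure D3:**
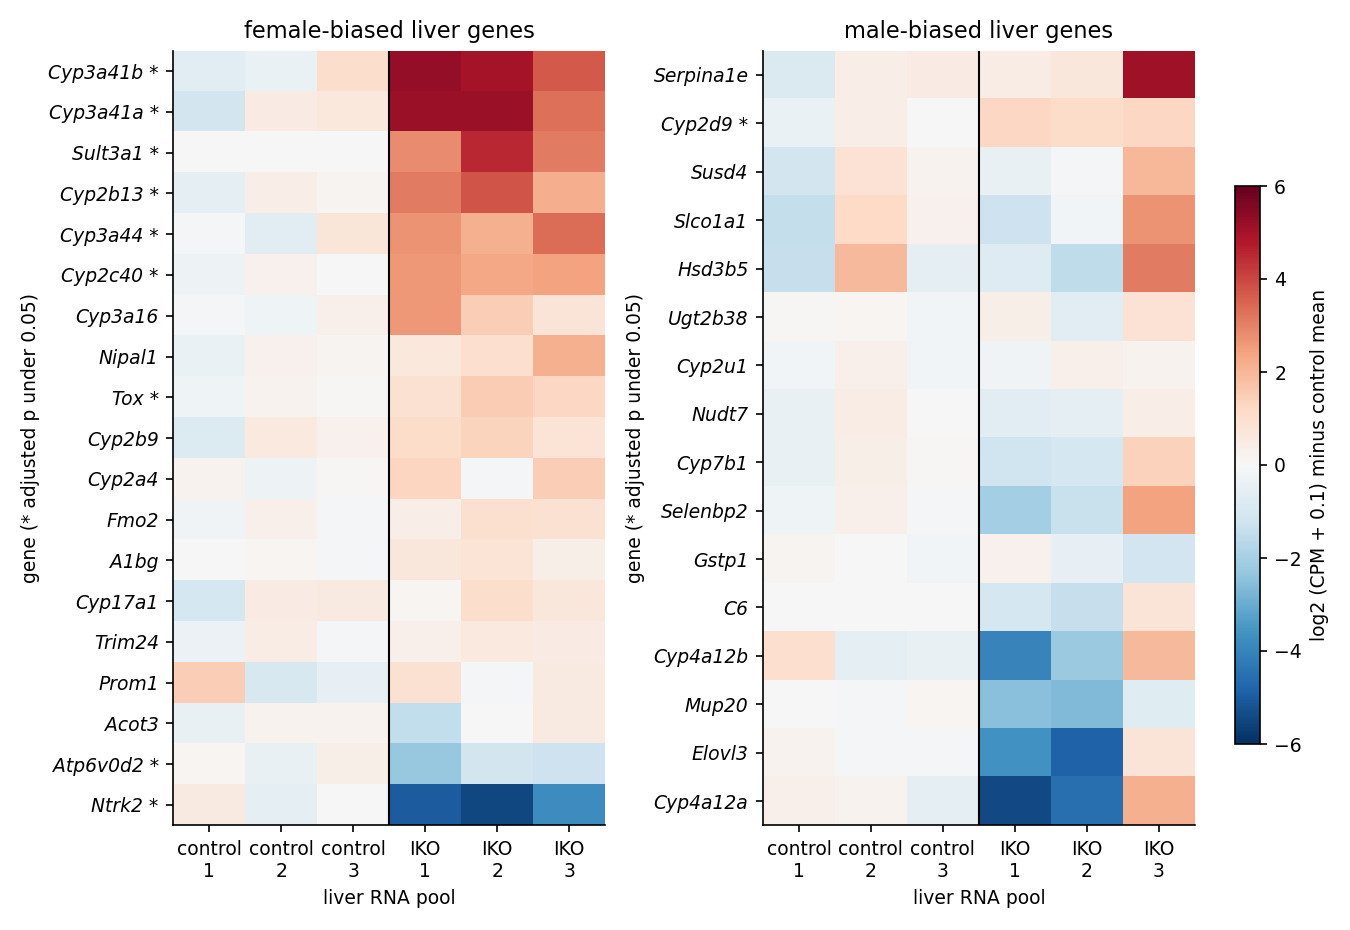
Female-biased (left) and male-biased (right) liver genes in each pool, coloured by log2 (CPM + 0.1) minus the mean of that value over the 3 control pools (red higher, blue lower), with a star where the edgeR adjusted p was under 0.05. Of the 20 female-biased genes tested, 19 are drawn. On the left 7 starred genes are red in all *Mttp-IKO* pools and 2 are blue; on the right, 6 genes (Cyp4a12a, Cyp4a12b, Cyp7b1, Elovl3, Selenbp2 and C6) are below all controls in *Mttp-IKO* pools 1 and 2 and above all of them in pool 3.

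Male-biased liver genes, which depend on pulsed GH and STAT5, differed between the *Mttp-IKO* pools themselves. Of 17 listed, 16 were tested, 1 was called higher (0.920% of all genes) and 0 lower (3.09%), with a median log2 fold change of 0.30. The gene called was the P450 Cyp2d9, at 133, 236 and 176 CPM in controls and 413, 376 and 421 CPM in *Mttp-IKO* pools (1.15, SE 0.23, edgeR adjusted p = 0.0389). Among *Mttp-IKO* pools, pool 3 was the highest for 14 of the 17, a count not made over all genes. Without it, 1 was called higher (1.69% of all genes then tested) and 6 lower (3.15%), and the median was -1.07.

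The P450 Cyp4a12a, which makes an arachidonate metabolite in male liver, was read at 15.1, 14.5 and 8.58 CPM in controls and at 0.193, 0.445 and 54.3 CPM in *Mttp-IKO* pools. Its log2 fold change was 0.52 with all pools (edgeR adjusted p = 0.865) and -5.31 without pool 3 (edgeR adjusted p = 0.00895). Selenbp2 moved from 0.96 to -1.68, Cyp7b1, an oxysterol hydroxylase, from 0.19 to -1.18, and Elovl3, a fatty acid elongase, from -0.78 to -5.32 (edgeR adjusted p without pool 3 of 0.0298, 0.0441 and 0.0193). Mup20, a urinary protein of males, was below the controls in every *Mttp-IKO* pool, at 431, 390 and 466 against 74.6, 68.2 and 261 CPM (-1.67, edgeR adjusted p = 0.0994). It was -2.58 without pool 3 (edgeR adjusted p = 0.00895).

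The most abundant male-biased genes that did not pass differed in which pools set them. Gstp1, a glutathione transferase gene, was read at 574, 489 and 457 CPM in controls and at 597, 354 and 231 CPM in *Mttp-IKO* pools, a log2 fold change of -0.36 (edgeR adjusted p = 0.541) that was -0.091 without pool 3. Serpina1e, an antitrypsin gene of a family of near-identical copies, was read at 35.7, 86.2 and 91.5 CPM in controls and at 88.9, 104 and 2238 CPM in *Mttp-IKO* pools, so that its log2 fold change of 3.51 (edgeR adjusted p = 0.143) was 0.45 without pool 3. *Mttp-IKO* pool 3 thus lay above all controls in Serpina1e, Cyp4a12a, Selenbp2, Cyp7b1, Elovl3 and Ghr, and below all of them in Gstp1 and Mup20.

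Of 6 lipid genes known to rise when hepatocytes lose STAT5, 5 were tested, 0 were called higher (0.920% of all genes) and 1 lower (3.09%), and all 5 were below 0 (median -0.39, or -0.60 without *Mttp-IKO* pool 3). The gene called was Cd36, a fatty acid transporter gene, at 299, 168 and 297 CPM in controls and 92.1, 120 and 95.2 CPM in *Mttp-IKO* pools (-1.31, SE 0.25, edgeR adjusted p = 0.0358). The call was lost without *Mttp-IKO* pool 3 (-1.26, edgeR adjusted p = 0.0536) and with the replicate number as a block (-1.28, edgeR adjusted p = 0.0615). Lpl, lipoprotein lipase, had -0.93 (edgeR adjusted p = 0.156) and Cidec, a lipid droplet protein gene, -0.18 (edgeR adjusted p = 0.855), or -0.60 without *Mttp-IKO* pool 3. Macrophages also express Cd36 and Lpl. The summed markers of recruited macrophages given above were lower in the same pools. Those of Kupffer cells overlapped between the groups, with 7 of the 10 markers below 0 and 3 above. The part of either cell type in these values was not tested.

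Among 14 liver transcription factors that act with STAT5, edgeR called 0, with 12 above 0 and a median of 0.59. The median was 0.28 without *Mttp-IKO* pool 3, the highest *Mttp-IKO* pool for 12 of the 14. Groups did not overlap for 7, all 7 higher, against 14.6% of all genes. DESeq2 called 4 of the 14, where it called 1995 over all genes. Without *Mttp-IKO* pool 3, edgeR called 1 higher, against 1.69% of the genes then tested. Hnf4a, a regulator of hepatocyte genes, was read at 563, 685 and 600 CPM in controls and at 867, 1201 and 1317 CPM in *Mttp-IKO* pools (0.87, SE 0.22, edgeR adjusted p = 0.0664), and Cebpb had 0.43 (edgeR adjusted p = 0.521), or -0.10 without *Mttp-IKO* pool 3. The summed hepatocyte markers given above lay higher in the same pools. Alb made up most of that sum, and 8 of the 10 markers were above and 2 below 0 on the log2 scale. The part of hepatocytes in these values was not tested.

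**Figure D4:**
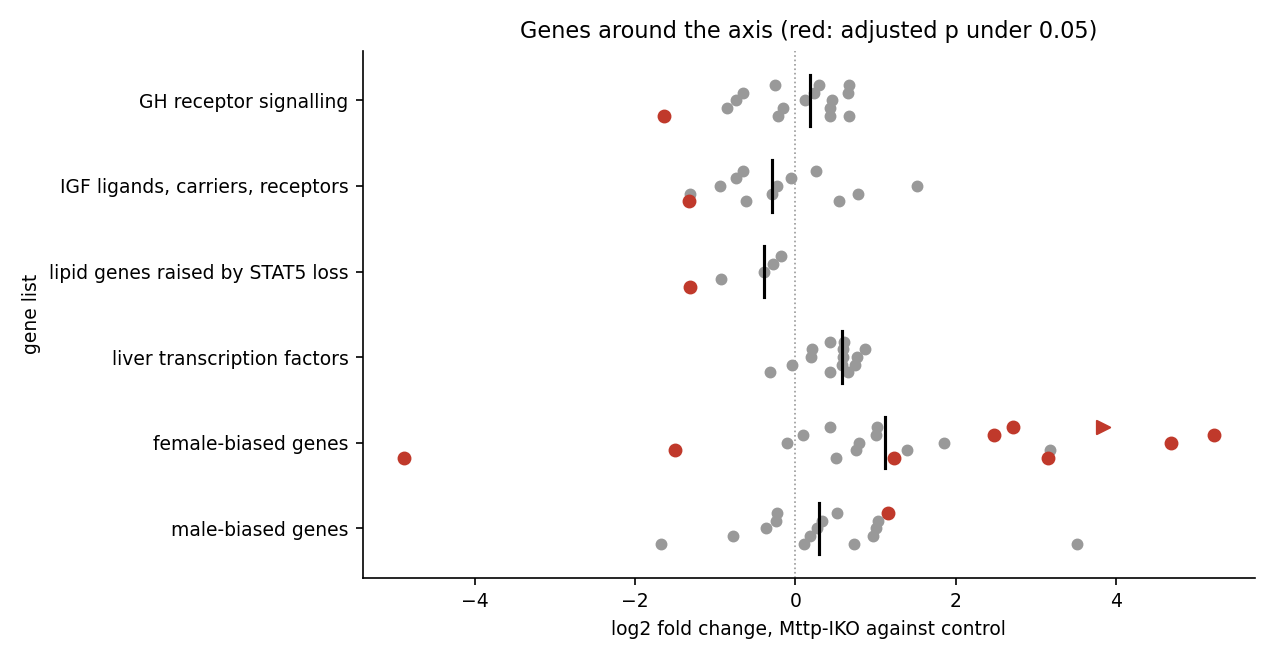
Log2 fold change, *Mttp-IKO* against control, of every tested gene in the 6 lists around the axis (one dot per gene, spread vertically for legibility, red where the edgeR adjusted p was under 0.05), with the list's median as a vertical bar and Sult3a1, at 0 reads in all controls, as a triangle at its lower bound. The female-biased genes have the highest median (1.12) and 9 red genes, against 1 or 0 in each other list.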

How the data were processed

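Liver RNA was read in 3 control and 3 *Mttp-IKO* pools after depletion of ribosomal RNA. Per the article and the submitters' processing notes, the authors aligned reads with STAR 2.5.1a to Ensembl release 76 (GRCm38), counted uniquely aligned reads with featureCounts 1.4.6-p5, and deposited unnormalised read counts with CPM (relative to the total reads on genes) and RPKM (CPM per kilobase) for each pool. Deposited CPM and RPKM followed from the counts, so counts were tested; 276 repeated lines of the table of all pools were dropped. Strand use is not stated.

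Groups and replicate numbers came from the sample titles. Genes were kept by filterByExpr (minimum count 10, minimum total 15), scaled by TMM and compared by the quasi-likelihood test of edgeR 4.0.16 (R 4.3.3, glmQLFit then glmQLFTest) without covariates, with Benjamini-Hochberg adjustment over 17287 genes and a threshold of 0.05. The article names no count test. CPM and RPKM given in the text are scaled by TMM. Same-numbered pools deviated together with correlations of 0.139, 0.112 and 0.00698, so the numbers were not taken as pairs. Every pool differed from the others by more than sampling noise. On simulated counts with 200 of 17012 genes changed by a log2 fold of 2 between the groups, edgeR recovered 200, with 9 false calls. In the real pools a larger log2 fold change was not always called. Cux2 passed at 3.29 (edgeR adjusted p = 0.0159), whereas Serpina1e did not at 3.51 (edgeR adjusted p = 0.143). Recovery at the spread seen between the real pools was not tested.

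Alternatives were DESeq2 1.42.0, limma-voom (limma 3.58.1), DESeq2's size factors, upper quartile and total counts as scalings, other filters, robust dispersion, protein-coding genes only, the replicate block, removal of a loess trend with gene length (span 0.3) and leaving out each pool. Leaving out control pool 2 and *Mttp-IKO* pool 3 together was added after seeing the data.

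The members and lists were chosen with earlier results of these data known. Beside the members, genes named are those of each list past the threshold (at most 6, by p) and the 2 most abundant others; 1 gene that this rule picked counts in its list but is not reported here. Jak2, Igfbp2, Igfbp3, Sult3a1, Tox, Atp6v0d2, Timd4, Mup20, Cyp4a12a, Cyp4a12b, Cyp7b1, Elovl3, Selenbp2 and C6 were named after their values were seen. Markers of cholangiocytes (summed 96.3 to 217 CPM in controls and 73.2 to 125 CPM in *Mttp-IKO* pools), B cells (10.2 to 24.2 and 4.02 to 7.99), T cells (5.73 to 12.1 and 3.48 to 6.34) and neutrophils (2.44 to 8.42 and 2.67 to 8.05) held 0 edgeR calls. Promoter windows are from RefSeq (GRCm38.p6). Summaries used Python 3.11.15, and matplotlib 3.10.9 drew the figures.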

Additional observations from a re-analysis of the deposited data

How the results depend on the processing

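Cux2 was higher and called under every scaling, filter and test tried and with the replicate block (log2 fold change 3.20), whereas Ghr, Stat5a, Socs2, Cish and Igf1 were called under none. The other members each had at least 352 reads in every pool. Upper quartile and total-count scaling moved the median of all genes to -0.021 and -0.17. Stat5b (-0.017 and -0.17) and Bcl6 (-0.011 and -0.16) went below 0 in the same 2 settings. With no filter they were at -0.018 and -0.0099, and the median of all genes at -0.056. Igfals passed without control pool 2 and *Mttp-IKO* pool 3 together (-0.87). The cause of these turns of sign and of the shift of Igfals was not tested.

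Genes called numbered 694 in edgeR, 595 with the replicate block (the pool numbers showed no clear pairing), 428 in limma-voom, 1995 in DESeq2, 2146 without both pools that stood apart, and 0 to 892 with single pools left out. With 0 called, without *Mttp-IKO* pool 2, edgeR gave 3221 genes an unadjusted p under 0.05. Without both pools the calls were 2 members of the axis, 4 genes of GH receptor signalling, 3 of the IGF list, 8 male-biased, 15 female-biased, 2 lipid and 3 transcription factor genes. They stand beside the 2146 called over all genes in that setting. DESeq2 called 3, 4 and 2 genes of the GH receptor, IGF and male-biased lists and 4 transcription factors, beside 1995 over all genes. The IGF list had 2 calls with no filter, with the block and with the length trend removed, the male-biased list 2 with no filter and with the block, the lipid list 0 with the block and the transcription factors 1 with the length trend removed.

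With single pools left out, calls ranged from 0 to 1 in the axis, 0 to 2 in the GH receptor and IGF lists, 0 to 7 in the male-biased, 0 to 9 in the female-biased, 0 to 1 in the lipid and 0 to 1 in the transcription factor list. Over all genes they ranged from 0 to 892. Log2 fold changes then ranged from 2.92 to 3.61 for Cux2, -0.75 to 0.11 for Ghr, -0.061 to 0.050 for Stat5b, -0.13 to 0.10 for Bcl6, -0.013 to 0.96 for Irs2, -0.60 to 0.26 for Cidec, -0.10 to 0.74 for Cebpb, -5.31 to 1.10 for Cyp4a12a, -1.68 to 1.49 for Selenbp2 and -1.18 to 0.58 for Cyp7b1. Sign also turned for Cidec with the length trend removed (0.0046) and for Cebpb without both pools (-0.20). In limma-voom, with the block and without both pools, Cyp4a12a was at -3.07, -3.02 and -5.22, Selenbp2 at -0.43, -0.48 and -1.51, and Cyp7b1 at -0.34, -0.32 and -0.99. Leaving out *Mttp-IKO* pool 3 gave the lowest value of each of these 3 genes.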
